A study of Mus musculus with 8 samples.

Results

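Kcnc1, Kcnc2 and Kcnc4, which encode the voltage-gated potassium channel subunits Kv3.1, Kv3.2 and Kv3.4, and Kcns3, which encodes the modulatory subunit Kv9.3, were followed in RNA bound to the ribosomes of interneurons at cortical synapses. They were chosen by gene symbol, and all 4 were found among the 56576 genes of the deposited table. The study asked which synaptic ribosome-associated mRNAs of interneurons depend on the receptor tyrosine kinase ErbB4. Synaptosomes, pinched-off synaptic terminals with their attached postsynaptic membrane, were prepared from the cerebral cortex at postnatal day 15, and ribosomes carrying an HA tag on the protein Rpl22 were pulled down with anti-HA beads. Controls were Lhx6-Cre;Erbb4+/+;Rpl22HA/HA mice (4 libraries, replicates 1, 3, 4 and 5) and mutants were Lhx6-Cre;Erbb4F/F;Rpl22HA/HA mice (4 libraries, replicates 2, 3, 4 and 5). Both genotypes therefore carried Lhx6-Cre and 2 tagged Rpl22 alleles. Lhx6-Cre acts in early postmitotic interneurons of the medial ganglionic eminence (MGE) and preoptic area, so that the tag marks parvalbumin-expressing (PV+) and somatostatin-expressing (SST+) cells together, and a library is a mixture of both. The study describes its 4 libraries per genotype as biological replicates, by which its statistics section means samples from separate brains and litters. Whether 1 library joined several brains is not given in the sources used here, and the p-values measure the spread between these libraries.

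Kv3 channels open only at strongly depolarized potentials and close very quickly on repolarization, which keeps action potentials short and lets a neuron fire at high rates without failing. They are best known in the cortex from fast-spiking PV+ basket cells, where Kv3.1 and Kv3.2 assemble into the same tetramers, and Kv3.2 is also found in SST+ cells. Kv9.3 forms no channel of its own. It joins Kv2 subunits in mixed tetramers, changes their gating, and its transcript is a common marker of cortical PV+ cells.

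At the level of sequence, the pore was compared. The stretch of coding sequence around the potassium selectivity filter is shown for Kcnc2, Kcnc4 and Kcns3, to set Kv3 genes beside the silent subunit. Each stretch is 63 bases of the coding strand in the mm10 build, and the capitals mark the 15 bases of the filter's 5 codons.
Kcnc2: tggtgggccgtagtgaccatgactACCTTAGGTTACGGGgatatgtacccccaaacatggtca
Kcnc4: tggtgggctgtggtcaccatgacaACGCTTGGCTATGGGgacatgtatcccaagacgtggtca
Kcns3: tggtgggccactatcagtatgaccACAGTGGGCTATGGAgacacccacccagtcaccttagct

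These stretches lie at chr10:112456205-112456267 for Kcnc2 (plus strand, exon 3 of 5) and chr3:107447775-107447837 for Kcnc4 (minus strand, exon 2 of 4). That of Kcns3 lies at chr12:11091551-11091613 (minus strand, exon 3 of 3). The filter's second codon stands for leucine in both Kv3 genes and for valine in Kcns3. Kcnc2 and Kcnc4 had the same base at 49 of the 63 positions, whereas Kcns3 matched Kcnc2 at 36 and Kcnc4 at 38. Over all annotated transcripts, the 4 members shared 0 stretches of 50 bases with one another. The longest common run was looked for only between the longest annotated coding transcripts of the members. It was 29 bases, between Kcnc1 and Kcnc2 and between Kcnc1 and Kcnc4. No annotated exon of the members overlaps an exon of another gene, and genes within their introns were not looked for.

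Between genotypes, the mean levels of all 4 transcripts were lower in mutants, to unequal degrees. Kcnc1 fell 2.03-fold in mutants by the thresholds of the study, which asked for a change of 1.5-fold or more with an unadjusted p no higher than 0.05. Kcnc2 and Kcns3 had lower means in mutants without passing them, and the mean of Kcnc4 was nearly the same in both genotypes. In none of the 4 did the genotypes separate completely. In bulk RNA of this kind, fewer cells of a type and less RNA per cell cannot be told apart.

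Values are normalized counts, that is reads on a gene divided by 1 size factor per library, and were compared with limma on log2(normalized count + 1). Controls had 51010687 to 80226984 reads on genes and mutants 58967504 to 74609576. The members had from 563 reads (Kcns3) to 25734 reads (Kcnc1) per library, and counting error alone is at most 4.21% of a value, well under the spread between libraries. Erbb4 fell in mutants (log2 fold change -1.25, standard error 0.34), where limma gave an unadjusted p of 0.0041 and an exact two-sided permutation test a p of 0.086. In the library labelled control replicate 1, though, the Erbb4 value was only 1640, which is under the 1711 and 1648 of mutant replicates 2 and 3 and under the 3034 to 5377 of the other controls. Without that library the log2 fold change of Erbb4 was -1.58, with an unadjusted limma p of 0.00014. The library labelled control replicate 3 stood apart in another way, since it was the highest of all 8 for each of the 4 members. For each member, the log2 fold change with either library left out is given beside the main value. Such values are not given for the other channel genes, the marker lists or the levels per kilobase. The study's supplement speaks of sequencing batches, which no label ties to a library, so that batch and library cannot be told apart here.

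**Figure D1:**
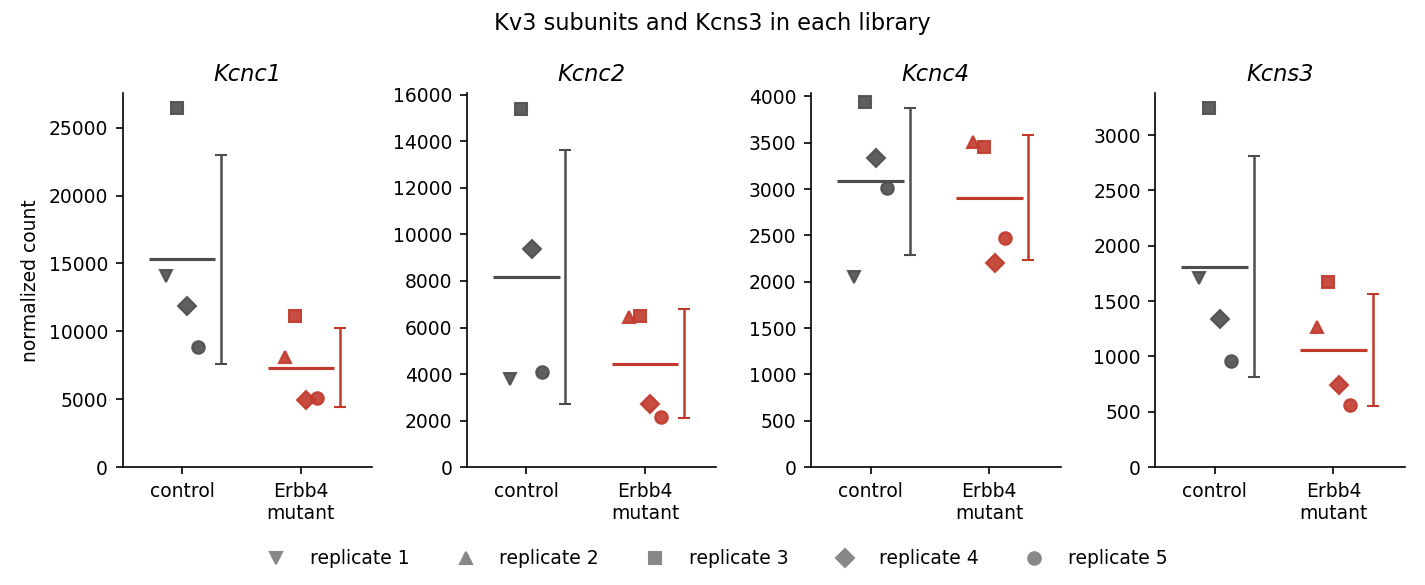
Normalized counts of the 4 members in each library, control in grey and Erbb4 mutant in red, with the replicate number as the symbol. Horizontal lines are means and bars beside them the SD over 4 libraries. Control replicate 3 is at the top of every panel, and the genotypes overlap in all 4.

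Kcnc1 (identifier GSMG0034496, chr7:46396468-46438704) encodes Kv3.1, the subunit most closely tied to fast spiking in PV+ cells. Its normalized counts were 14071, 26415, 11839 and 8862 in control replicates 1, 3, 4 and 5, and 8097, 11133, 4969 and 5116 in mutant replicates 2, 3, 4 and 5. Of the mutants, 3 lay below every control, and mutant replicate 3 lay above control replicate 5, so the genotypes overlapped in 1 library of each. The means were 15297 ± 7713 in controls and 7329 ± 2917 in mutants (SD, n = 4). Its log2 fold change was -1.02 (standard error 0.36, 95% interval -1.81 to -0.23). Its unadjusted limma p was 0.016, and an exact two-sided permutation test of its log2 values gave p = 0.057, in a design of 4 against 4 libraries that can go no lower than 0.029. After Benjamini-Hochberg adjustment over all genes tested, the limma p was 0.58. It was also called without the library of the highest value, control replicate 3 (log2 fold change -0.72, unadjusted limma p of 0.046). Without control replicate 1 its log2 fold change was -1.02, which met the thresholds too.

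Kcnc2 (chr10:112270017-112467024) encodes Kv3.2, the partner of Kv3.1 in cortical interneurons. Control replicates 1, 3, 4 and 5 had normalized counts of 3793, 15388, 9358 and 4080, and mutant replicates 2, 3, 4 and 5 had 6460, 6495, 2704 and 2143. Controls were split into a high pair, replicates 3 and 4, and a low pair, replicates 1 and 5. Mutant replicates 2 and 3 lay between these pairs, and mutant replicates 4 and 5 lay below every control. Means were 8155 ± 5459 in controls and 4450 ± 2352 in mutants (SD, n = 4), and the log2 fold change was -0.80 (standard error 0.50, 95% interval -1.90 to 0.30). This did not pass the test (unadjusted limma p = 0.14, exact two-sided permutation p = 0.29). Of the libraries left out in turn, control replicate 3 moved the value most, to -0.41, whereas without control replicate 1 it was -1.08. It met the thresholds in neither, but did with library quality weights (-1.28, unadjusted limma p of 0.010). It also did with the replicate number as a block (-1.32, unadjusted limma p of 0.00063), although no label pairs the numbers.

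Kcnc4 (chr3:107438301-107458898) encodes Kv3.4, a rapidly inactivating member of the family that is found in the axons and terminals of many kinds of neurons. In control replicates 1, 3, 4 and 5 its normalized counts were 2046, 3935, 3334 and 3012. Those of mutant replicates 2, 3, 4 and 5 were 3511, 3449, 2197 and 2473. Every mutant lay within the range of the controls, whose extremes were replicate 1 at the bottom and replicate 3 at the top. The means were 3082 ± 789 and 2908 ± 671 (SD, n = 4), and the log2 fold change was -0.07 (standard error 0.25, unadjusted limma p = 0.77, exact two-sided permutation p = 0.83). The 95% interval, -0.63 to 0.48, reaches past a 1.5-fold decrease but not to the value of Kcnc1. Without control replicate 3 the log2 fold change was 0.056, without control replicate 1 it was -0.26, and with library quality weights it was -0.34, not called.

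Kcns3 (chr12:11090202-11150844), the gene of the silent subunit Kv9.3, had the lowest mean level per kilobase of transcript among the members. Its normalized counts were 1705, 3241, 1336 and 962 in control replicates 1, 3, 4 and 5 and 1270.5, 1672, 743 and 559 in mutant replicates 2, 3, 4 and 5. Mutant replicates 4 and 5 lay below every control, while the other pair of mutants lay among the controls. Its mean was 1811 ± 1000 in controls and 1061 ± 507 in mutants (SD, n = 4). The log2 fold change of -0.75 (standard error 0.42, 95% interval -1.68 to 0.17) did not pass the test, with an unadjusted limma p of 0.10 and an exact two-sided permutation p of 0.17. Again control replicate 3 carried much of it: without that library the value was -0.42, and without control replicate 1 it was -0.73. It met the thresholds without control replicate 5 (-1.01), without mutant replicate 3 (-1.01) and with library quality weights (-0.86, unadjusted limma p of 0.033). The same held with the replicate number as a block (-0.86, unadjusted limma p of 0.0019), although no label pairs the numbers.

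Of the 4 members, 1 (Kcnc1) was called lower and 0 higher. Among all 31171 genes tested, 988 or 3.17% were called lower and 1241 or 3.98% higher by the same rule. The balance turned with the recovered reads, where DESeq2 called 1573 lower and 1261 higher and edgeR 1206 and 1073. All 4 mutants lay below all 4 controls in 0 of the 4 members, against 677 or 2.17% of all genes. All 4 members had log2 fold changes below 0, with a median of -0.78, beside a median of 0.06 over all genes tested. After Benjamini-Hochberg adjustment, 0 members had a limma p under 0.05, and 14 genes of the whole table did in the lower direction and 0 in the higher. At an unadjusted limma p under 0.05, by contrast, 1175 genes were lower and 1421 higher.

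Compared per kilobase of the longest annotated coding transcript, Kcnc1 and Kcnc2 had the highest mean levels in both genotypes and Kcns3 the lowest. Kcnc1 had 1971 ± 994 normalized counts per kilobase in controls and 944 ± 376 in mutants (SD, n = 4), and Kcnc2 had 1616 ± 1082 and 882 ± 466. Kcnc4 had 840 ± 215 in controls and 793 ± 183 in mutants. The level of Kcns3 was 617 ± 341 in controls and 362 ± 173 in mutants. Within libraries, Kcnc1 had the highest level per kilobase in 3 of the 4 controls and 2 of the 4 mutants. Kcnc2 ranked first in control replicate 4 and mutant replicate 2, and Kcnc4 in mutant replicate 5. Between neighbours in the order of mean levels, the difference in controls was always within the larger of their SDs. In mutants this held too, except for the step from Kcnc4 down to Kcns3. The reads were counted on constitutive regions whose lengths are not given in the sources used here, so the annotated transcript length is a stand-in. The order in mutants depended on this choice. Per kilobase of all annotated exons of a gene, overlaps counted once, Kcnc4 had the highest mean in mutants (793 ± 183). Kcnc1 (775 ± 308) and Kcnc2 (623 ± 329) followed (SD, n = 4). With that length the order of means in controls was unchanged, and Kcns3 was lowest in both genotypes.

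The members differed in how they varied from library to library. Kcnc1 and Kcns3 moved closely together, with a Pearson r of 0.96 on log2 values over the 8 libraries. Kcnc2 had nearly the same r with each of the others (0.87 with Kcns3, 0.84 with Kcnc1 and 0.83 with Kcnc4). The weakest relations were those of Kcnc4 with Kcnc1 (r = 0.52) and with Kcns3 (r = 0.55). With each genotype's mean taken out, r was 0.98 for Kcnc1 and Kcns3, 0.61 for Kcnc1 and Kcnc4, and 0.58 for Kcnc4 and Kcns3. These are descriptions over libraries whose interneuron markers vary as well. The sharpest contrast among libraries was control replicate 1, which ranked second of 8 for Kcnc1 and Kcns3, sixth for Kcnc2 and last for Kcnc4. Mutant replicates 4 and 5 held the last 2 places for Kcnc1, Kcnc2 and Kcns3.

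**Figure D2:**
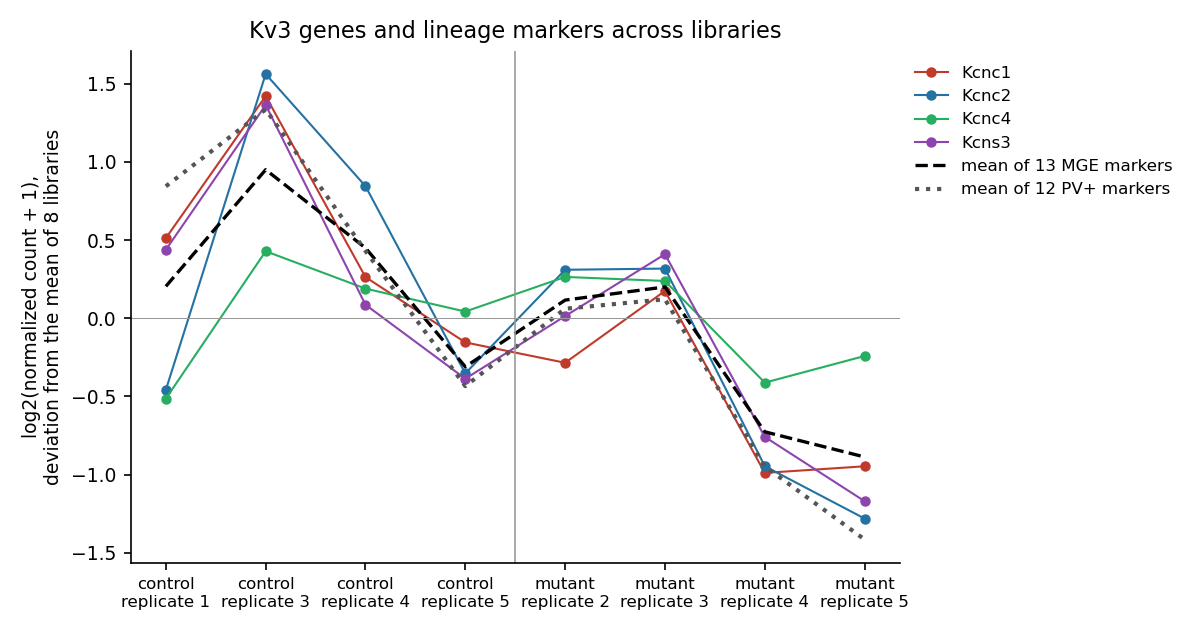
Deviation of log2(normalized count + 1) from its mean over the 8 libraries, for the 4 members (coloured lines) and for the mean of 13 MGE markers (dashed) and of 12 PV+ markers (dotted), with controls left and mutants right of the grey line. Lines join libraries only to help the eye. Most lines peak at control replicate 3 and are lowest at mutant replicates 4 and 5, whereas Kcnc4 is lowest at control replicate 1.

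Ratios within a library do not depend on its size factor, and were compared for all 6 pairs of the 4 members, a set of pairs chosen after the data had been seen. The log2 ratio of Kcnc1 to Kcnc4 was 2.23 ± 0.63 in controls and 1.28 ± 0.28 in mutants (SD, n = 4), with control replicates 1 and 3 above all other libraries. The difference of -0.95 gave an exact two-sided permutation p of 0.057, and 0.29 after Benjamini-Hochberg adjustment over the 6 pairs. With each library left out in turn it ran from -1.17 to -0.76. For the ratio of Kcnc2 to Kcnc4 the difference was -0.72 (exact permutation p = 0.14). The balance of the main Kv3 pair, Kcnc1 to Kcnc2, was 1.03 ± 0.66 in controls and 0.81 ± 0.38 in mutants on the log2 scale, and its difference of -0.22 was within the spread (exact two-sided permutation p = 0.60). Kcnc1 to Kcns3 was the steadiest ratio among controls, from 3.03 to 3.20, and ran from 2.67 to 3.19 in mutants (exact permutation p = 0.11). None of the 6 pairs passed after adjustment.

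The markers of the pulled-down lineage had a lower mean in mutants, so the members were also set beside them in the same library. The mean log2 level of 13 MGE interneuron markers was 11.43, 12.18, 11.67 and 10.91 in control replicates 1, 3, 4 and 5, and 11.34, 11.43, 10.50 and 10.34 in mutant replicates 2, 3, 4 and 5. It was thus highest in control replicate 3 and lowest in mutant replicates 4 and 5, as Kcnc1 and Kcns3 were, and lower by 0.65 on average in mutants. Relative to this mean, the log2 level of Kcnc1 was 2.23 ± 0.28 in controls and 1.86 ± 0.18 in mutants (SD, n = 4), a difference of -0.37 (exact two-sided permutation p = 0.086). For Kcnc2 the difference was -0.15 (exact permutation p = 0.66), and for Kcns3 it was -0.10 (exact permutation p = 0.66). Kcnc4 went the other way, from 0.00 ± 0.47 in controls to 0.58 ± 0.26 in mutants, a difference of 0.57 that did not pass (exact permutation p = 0.11). None of these 4 differences passed the exact test, and the part of the markers in the results above was not tested.

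With 12 PV+ markers in place of the MGE markers the sign changed for 3 of the 4 members. The mean of the PV+ markers was lower by 1.09 in mutants, from 10.23 to 11.99 in controls and from 9.24 to 10.78 in mutants. Relative to it, Kcnc1 differed by 0.067 between genotypes (exact two-sided permutation p = 0.77), Kcnc2 by 0.29 (exact permutation p = 0.80) and Kcns3 by 0.34 (exact permutation p = 0.086), all 3 toward higher values in mutants. Kcnc4 kept its sign, with a difference of 1.01 (exact permutation p = 0.086). The sign for the other members thus depended on which markers stood for the lineage, and none of the 4 differences passed the exact test.

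**Figure D3:**
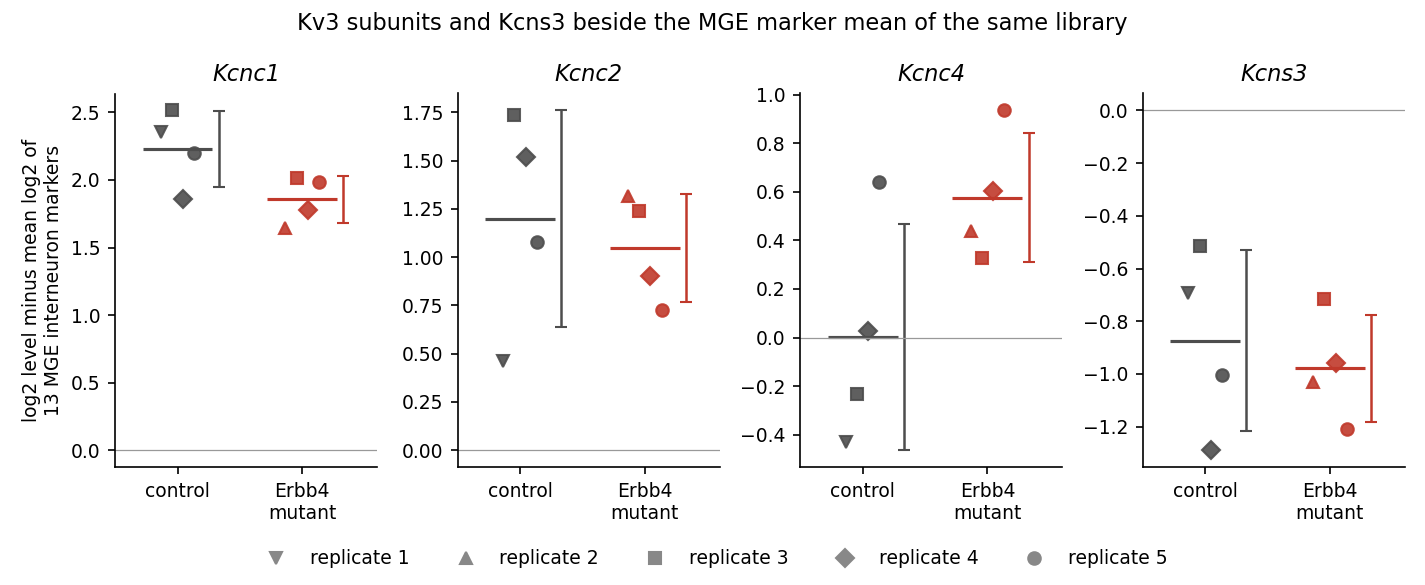
Log2 level of each gene minus the mean log2 level of 13 MGE interneuron markers in the same library, control in grey and Erbb4 mutant in red, with means as lines and the SD over 4 libraries as bars. The scales differ between panels. The genotypes overlap in all 4 panels, and the means of Kcnc4 are 0.00 in controls and 0.58 in mutants.

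The marker lists show what the libraries held. Pvalb, the calcium-binding protein that names PV+ cells, had normalized counts of 3219, 5896, 1674 and 730 in control replicates 1, 3, 4 and 5 and of 1188, 1439, 269 and 159 in mutant replicates 2, 3, 4 and 5. Sst ran from 31270 to 367992 in controls and from 5964 to 143143 in mutants, and Lhx6, the transcription factor of the lineage, from 701 to 1781 and from 532 to 964. Of the 12 PV+ markers 6 were called lower (median log2 fold change -1.15), and their summed level was 35669 to 147686 in controls and 21673 to 57663 in mutants. Of the 12 SST+ markers 1 was called lower (median -0.99; summed level 80272 to 575460 and 30278 to 236754), and of the 13 MGE markers 2, Gad1 and Gad2 (median -0.69; summed level 104343 to 348115 and 50796 to 171359). The 10 CGE interneuron markers tested had a median of -0.54 with 0 called. Over all genes tested, 3.17% were called lower and 3.98% higher by the same rule.

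Markers of cells that should not carry the tag were present in all libraries. Excitatory neuron markers summed to 141174 to 176575 in controls and 124983 to 153869 in mutants, with 1 of 12 called lower, 1 higher and a median of -0.18. Oligodendrocyte markers had a median of -0.62 with 3 of 10 called lower (summed level 229955 to 673772 and 202878 to 287269). Endothelial and mural markers had a median of 0.54 with 4 of 10 called higher (174080 to 274713 and 267749 to 287980). Astrocyte and microglia markers had medians of -0.17 and -0.44 with 0 of 10 called in each. These counts stand beside 3.17% called lower and 3.98% called higher over all genes tested. No marker of these lists was at 0 in every library. Their part in the values of the Kv3 genes was not tested.

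Kcns3 acts with Kv2 channels, and Kcnb2 with the other silent subunits made up a list of 10, of which 9 could be tested. All 9 had log2 fold changes below 0, from -0.90 to -0.08 with a median of -0.35. Beside 3.17% of all genes tested, 1 of the 9 was called lower. This was Kcng2, another silent Kv2 partner, with normalized counts of 2110, 3126, 2272 and 2765 in control replicates 1, 3, 4 and 5 and of 1779, 1953, 1637 and 1315 in mutant replicates 2, 3, 4 and 5. Its log2 fold change was -0.62 (standard error 0.21, unadjusted limma p = 0.013, exact two-sided permutation p = 0.029, limma p adjusted by Benjamini-Hochberg 0.58). Its genotypes did not overlap. All 4 mutants lay below all 4 controls in 1 of the 9 genes, against 2.17% of all genes tested. Kcnb2, which encodes Kv2.2, was not called, with a log2 fold change of -0.15. Of the KCNE genes, small single-pass subunits that modulate potassium channels including Kv3.4, 4 were found by symbol, 2 could be tested and 0 were called. Kcne4, the one with the highest mean, had a mean of 567 ± 196 in controls and 736 ± 217 in mutants (SD, n = 4), with a log2 fold change of 0.39. Kcne3 had means of 21.7 and 6.22 and Kcne2 of 0.618 and 1.62, and Kcne1 was listed at 0 in all libraries.

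The genes that share with Kv3 the work of fast spiking were 13 sodium, potassium and HCN channel subunits and their partners. All 13 had log2 fold changes below 0, with a median of -0.62, and 3 were called lower, against 3.17% of all genes tested. Log2 fold changes were also below 0 for 10 of 10 oligodendrocyte, 9 of 10 microglia and 7 of 10 astrocyte markers. The same held for 8 of 12 excitatory neuron markers and 1 of 10 endothelial and mural markers. Kcnab2, a cytoplasmic beta subunit of Kv1 channels, had 1830.5 to 2769 in controls and 1190 to 1778 in mutants (log2 fold change -0.62, limma p = 0.013, exact permutation p = 0.029), without overlap. Kcnab3, of the same family, had 528 to 1006 and 165 to 594 (log2 fold change -1.19, limma p = 0.019, exact permutation p = 0.086), with mutant replicates 4 and 5 above the lowest control. Kcnk1, a two-pore leak channel, had 10768 to 24875 and 7215 to 12453 (log2 fold change -0.78, limma p = 0.034, exact permutation p = 0.17), with overlap. Kcna2, the gene of Kv1.2, did not overlap between genotypes but missed the fold threshold (log2 fold change -0.49, limma p = 0.044, exact permutation p = 0.029). The limma p adjusted by Benjamini-Hochberg was 0.58 for each of these 4 genes. All 4 mutants lay below all 4 controls in 2 of the 13 genes listed, against 2.17% of all genes tested.

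**Figure D4:**
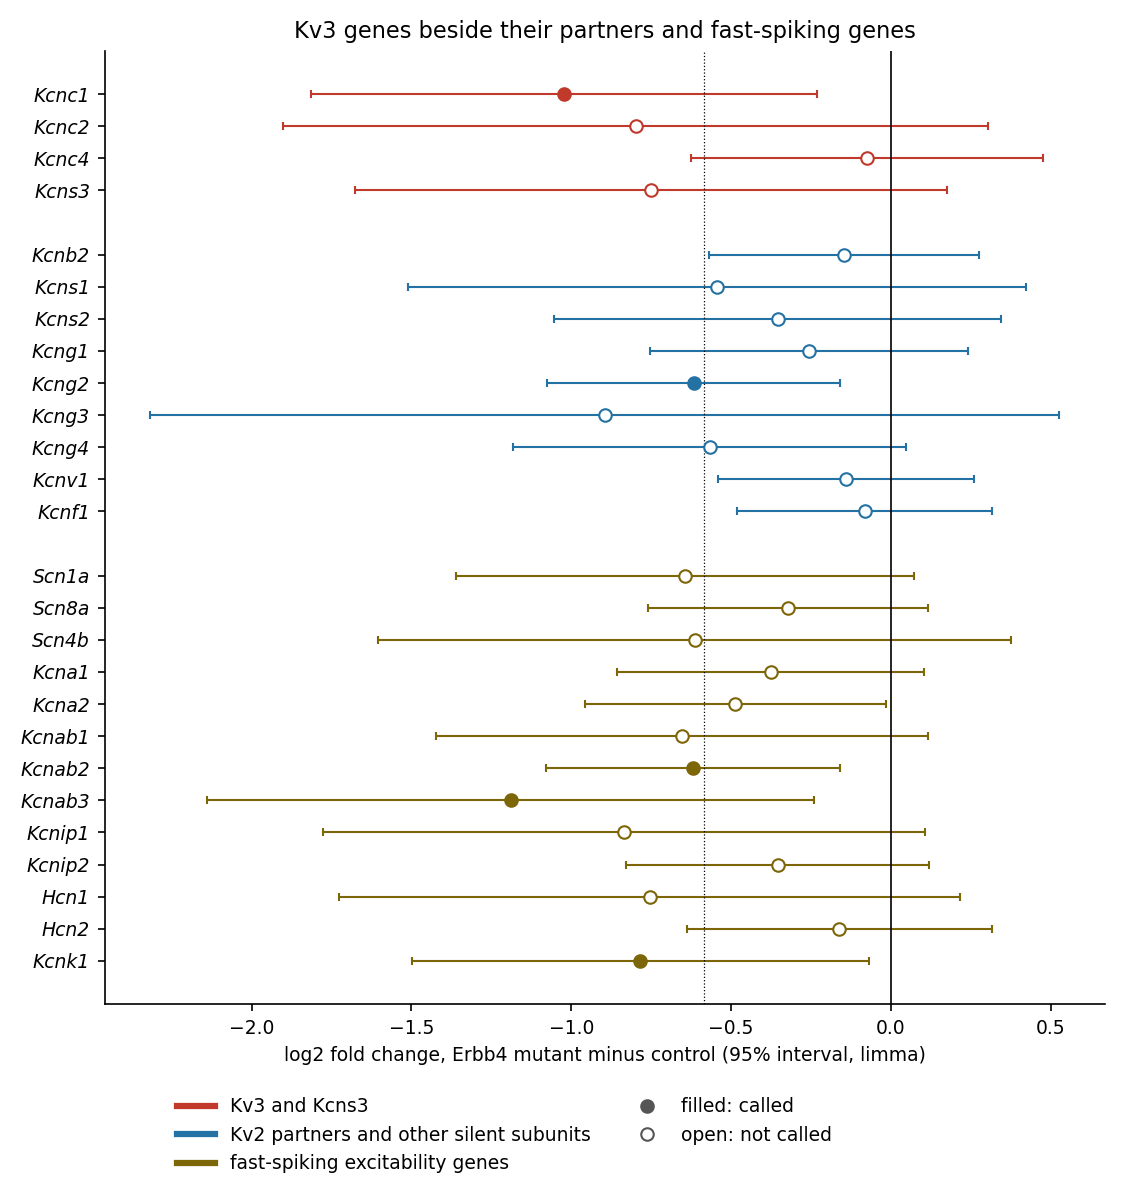
Log2 fold change of mutants against controls with its 95% interval from limma, for the 4 members (red), Kcnb2 and other silent subunits (blue) and fast-spiking excitability genes (olive). Filled points met the study's thresholds, the solid line marks no change and the dotted line a 1.5-fold decrease. Every point lies left of 0, and 5 of the 26 are filled. Over all genes tested, 3.17% were called lower.

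The genes whose log2 values followed each member most closely over the 8 libraries were found among 12123 genes with at least 100 normalized counts in every library. For Kcnc1 these were Cln6, Slc39a13 and Plpp7, each with a Pearson r of 0.99, and for Kcnc2 Atp2a2, Npnt and Slc2a13, each with 0.99. For Kcns3 they were Ostc, Mboat7 and Inafm1, also each with 0.99. The closest to Kcnc4 were Atp2b2 (r = 0.97), Pcdh9 (r = 0.97) and Disp2 (r = 0.96). The 3 genes named for each member were named for no other. These values describe 8 libraries that also differ in depth and in the level of their interneuron markers.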

How the data were processed

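RNA from HA-tagged ribosomes of cortical synaptosomes was compared between 4 control and 4 Erbb4 conditional mutant libraries, grouped by the genotype in the sample labels. Each of the table's 8 columns carries the name of 1 sample. The deposited values are a signal, counts that the authors had normalized. Per the study's methods and the submitters' processing notes, reads were aligned to mm10 with STAR 2.4.0, those on constitutive regions of each Fast DB gene were counted, and the counts were divided by 1 DESeq2 size factor per library. Whole reads were recovered by taking the smallest value above 0 in a library as 1 read, and 100% of the values came out whole within 0.01.

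The test was limma 3.58.1 (eBayes with trend, R 4.3.3) on log2(normalized count + 1), for the 31171 genes whose mean reached 10 in either genotype. On this scale the change of a gene with few reads is understated. Adjusted p-values are Benjamini-Hochberg values over all of these genes. A gene was called at the study's thresholds, a 1.5-fold change and an unadjusted p no higher than 0.05, with the p from limma. The study took its p from DESeq2, and only for genes expressed above an intergenic background. It reported most of its differentially expressed genes as lower in mutants, whereas the limma calls here were 988 lower and 1241 higher. Ratios within a library were compared by exact two-sided permutation tests. Alternatives were pseudocounts of 0.1 and 10, no filter, a minimum mean of 100, library quality weights, the recovered reads in DESeq2 1.42.0 or edgeR 4.0.16 (quasi-likelihood test with TMM), the replicate number as a block, and leaving out each library. The fits were tested on simulated counts.

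The members, the gene lists and the tests were chosen with earlier results of these data known. Genes named are the 4 members, Erbb4, Pvalb, Sst and Lhx6, the called genes of 3 channel lists (the 3 of highest mean where none was called), and the 3 genes most correlated with each member. Kcnb2, Kcna2, Kcne1, Gad1 and Gad2 were named after their values were seen. Sequences, exons and transcript lengths were read from the mm10 genome with the GENCODE annotation. Symbols without a match in the table, such as Kcne5, were not analysed here, and some genes and sequences are not reported here.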

Additional observations from a re-analysis of the deposited data

Results flagged for a closer look

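Kcnb2, the gene of the Kv2.2 subunit, had 5285 normalized counts in mutant replicate 3, while the other mutants had 3505.5 to 3753. The gap to the nearest of them was 0.861 of the range of the group, above the limit of Dixon's test at 95% for 4 values. It was the 1 such value among 64 groups of 4 libraries looked at (the named genes in each genotype), where chance alone gives about 3.2. With it, Kcnb2 had a mean of 4058 ± 825 in mutants and 4446 ± 466 in controls (SD, n = 4).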

How the results depend on the processing

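With a library left out, Kcnc1 had log2 fold changes of -1.25 to -0.72 and was called lower each time. Its unadjusted limma p was close to the limit without mutant replicate 4 (0.0497), mutant replicate 5 (0.048) or control replicate 3 (0.046). Kcnc1 was called lower under all other alternatives run, except where calls needed an adjusted limma p under 0.05. There its -1.02 was not called, 0 members were, and over all genes 14 were lower and 0 higher (10 and 0 with edgeR, 36 and 32 with DESeq2; at an unadjusted limma p under 0.05, 1175 and 1421). With library quality weights 3 members were called, Kcnc2 at -1.28 and Kcns3 at -0.86, and over all genes 1633 were lower and 1997 higher. DESeq2 gave 1573 lower and 1261 higher, and edgeR 1206 and 1073. Median log2 fold changes over all genes ran from -0.01 to 0.10 over all settings.

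No label says that replicate numbers are shared between genotypes. Deviations from genotype means correlated at 0.10, 0.098 and 0.082 between same-numbered libraries 3, 4 and 5 over the genes tested, and at 0.25, 0.21 and 0.24 over genes with a mean of at least 100. Each of these 6 libraries correlated best with its own number in both sets, except control replicate 5 over the genes tested, and by small margins. With the replicate number as a block, 3 members were called, with Kcnc2 at -1.32 and Kcns3 at -0.86, 1719 genes were lower and 1445 higher, and the Kcnc1 to Kcnc2 ratio turned to 0.22. Between same-numbered libraries 3, 4 and 5, the log2 differences were -1.24, -1.79 and -0.93 for Kcnc2 and -0.95, -0.85 and -0.78 for Kcns3. The causes were not tested.

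Leaving out 1 library gave -1.08 to -0.41 for Kcnc2, -0.26 to 0.056 for Kcnc4 (0.056 without control replicate 3, 0.050 without mutant replicate 4) and -1.01 to -0.42 for Kcns3. Without control replicate 5 or mutant replicate 3, 2 members were called, otherwise 1. Genes called lower ranged from 515 to 1977 (643, 551, 1537 and 1977 without control replicates 1, 3, 4 and 5, and 575 and 515 without mutant replicates 4 and 5), and higher from 619 to 1792 (619 and 714 without mutant replicates 4 and 5). Relative to MGE markers the ranges were -0.50 to -0.28 for Kcnc1, -0.40 to 0.027 for Kcnc2 (0.027 without control replicate 3), 0.43 to 0.79 for Kcnc4 and -0.24 to 0.016 for Kcns3 (0.016 without control replicate 3). The Kcnc1 to Kcnc2 ratio ranged from -0.45 to 0.063 (0.063 without control replicate 1). With PV+ markers the differences were 0.067 for Kcnc1, 0.29 for Kcnc2, 0.34 for Kcns3 and 1.01 for Kcnc4.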
